A study of Glycine max with 60 samples.

Results

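Sucrose synthases and invertases are the enzymes that split sucrose in plant cells. The 5 genes described here were chosen by their identifiers in the deposited tables: 4 sucrose synthase genes, Glyma.15G151000, Glyma.09G073600, Glyma.09G167000 and Glyma.14G209900, and the cell wall invertase gene Glyma.20G029100. They are 5 of 56044 genes in the tables, and all 5 were among the 40517 genes with enough counts to be tested. In the annotation deposited with the tables the best Arabidopsis match was SUS2 for Glyma.15G151000, SUS4 for Glyma.09G073600, SUS6 for both Glyma.09G167000 and Glyma.14G209900, and cwINV4 for Glyma.20G029100. By their identifiers in the Williams 82 soybean gene set they lie on chromosomes 15, 9, 9, 14 and 20, and start and end positions were not used here.

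RNA was sequenced from whole developing soybean seeds of 4 lines at 5 stages, with 3 replicates per line and stage and 60 libraries in all. The line 3mlpa carries the low phytic acid mutations mips1, mrp-l and mrp-n, and its reference 3MWT is a sister line that carries none of them and comes from the same cross. The line 1mlpa carries only mips1, and its near-isogenic reference 1MWT lacks it. MIPS1 makes the first intermediate of myo-inositol, and MRP-L and MRP-N are transporter genes. Seed length defined the stages, with S1 (2 to 4 mm) followed by S2 (4 to 6 mm), S3 (6 to 8 mm), S4 (8 to 10 mm) and S5 (10 to 12 mm), and 48 plants of each line were grown with 14 h of light. Each line is a single genotype, so a line and the mutations it carries cannot be told apart. The libraries of 3mlpa and 3MWT had been sequenced for earlier work, and which pair a library belongs to cannot be told apart from when it was sequenced. Nothing in the labels says that replicates came from separate plants, and p-values then measure only the spread between these samples.

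Sucrose arrives in the seed through the phloem. Cell wall invertase splits it outside the cell into glucose and fructose, whereas sucrose synthase splits it inside the cell into fructose and UDP-glucose, a sugar donor for cell wall and starch synthesis. In faba bean seeds, cell wall invertase of the seed coat is known for the early, dividing phase and sucrose synthase for the storage phase. In whole seeds, fewer cells of a type and less RNA per cell cannot be told apart.

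Levels below are CPM (read counts scaled to library size) after TMM, a method that sets libraries to the same level over most genes. A gene was called when edgeR's quasi-likelihood test gave a Benjamini-Hochberg adjusted p under 0.01 and the absolute log2 fold change was above 1. Total counts per library were 17359192 to 42800413 (median 25314824). Storage markers (glycinin G1, a beta-conglycinin and an oleosin, 3 genes) summed to 1.94 to 145 CPM at S1 and 105318 to 201928 CPM at S5, and seed coat markers (TT12 and dihydroflavonol reductase, 2 genes) to 287 to 671 CPM at S1 and 104 to 222 CPM at S5. By correlation over all genes, 8 of 60 libraries were nearer to another stage of their own line than to their labelled stage, among them replicate 2 of 3MWT at S1, which was nearest to S2. Because storage protein RNA takes up much of the late libraries, TMM factors had a median of 1.32 at S1 and 0.688 at S5, and scaling by total count in place of TMM lowered the log2 fold changes of the 5 genes between S5 and S1 by 0.80 to 0.98.

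The cell wall invertase and the SUS2 match changed in opposite directions as seeds grew. Between S5 and S1, Glyma.15G151000 was called higher and Glyma.20G029100 lower in each of the 4 lines, under TMM and under total count scaling alike. Glyma.09G167000 was called lower in 3 of 4 lines, and Glyma.09G073600 and Glyma.14G209900 were called in none under TMM. Of the 20 tests 11 were called, where 32.2%, 29.3%, 31.9% and 32.6% of all tested genes were called in 3mlpa, 3MWT, 1mlpa and 1MWT.

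**Figure D1:**
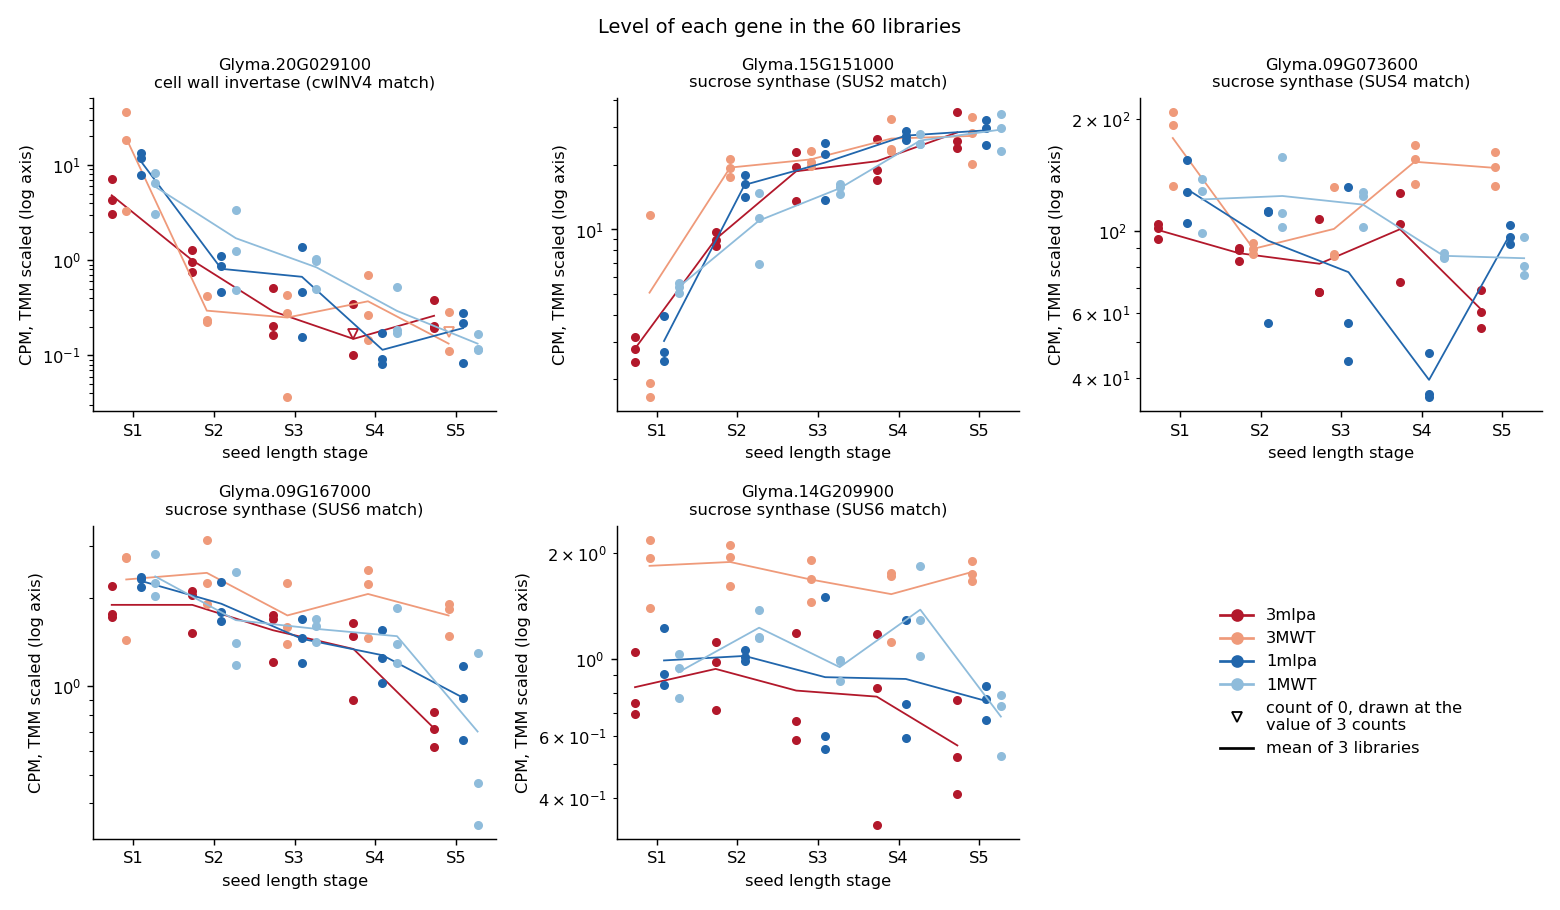
TMM-scaled CPM (log axis) of each gene against seed length stage, with 1 point per library and lines through the means of 3 libraries. The invertase Glyma.20G029100 lies at 3.05 to 35.8 CPM at S1 and at or below 0.382 CPM at S5, and the SUS2 match Glyma.15G151000 lies at 1.66 to 11.6 CPM at S1 and 20.2 to 35.2 CPM at S5.

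Glyma.20G029100 encodes an insoluble, wall-bound invertase, the kind that acts on sucrose outside the cell. In 3mlpa its 3 libraries had 4.28, 7.07 and 3.05 CPM at S1, 0.750, 0.968 and 1.27 CPM at S2, 0.202, 0.163 and 0.508 CPM at S3, 0.101, 0.346 and 0 CPM at S4, and 0.196, 0.205 and 0.382 CPM at S5. In 3MWT they had 18.1, 3.32 and 35.8 CPM at S1, 0.225, 0.238 and 0.423 CPM at S2, 0.433, 0.0367 and 0.280 CPM at S3, 0.265, 0.146 and 0.700 CPM at S4, and 0, 0.287 and 0.113 CPM at S5. Within both lines no library at S2 or later reached the lowest S1 library. A count of 0 was found in 1 library of 3mlpa at S4 and 1 of 3MWT at S5, which allows a level of up to 0.168 CPM and 0.178 CPM (3 counts, counting error only).

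In the other pair of lines Glyma.20G029100 was also highest at S1. Its libraries had 11.8, 7.92 and 13.2 CPM in 1mlpa at S1 and 1.09, 0.879 and 0.462 CPM at S2. In 1MWT they had 3.09, 6.43 and 8.22 CPM at S1 and 3.37, 1.25 and 0.482 CPM at S2, so that the groups overlapped in this line alone. The 3.37 CPM belonged to replicate 1 at S2, nearest to S1 over all genes. The 3.09 CPM belonged to replicate 1 at S1, nearest to S2. From S3 on, the 2 lines lay between 0.0804 and 1.39 CPM.

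The step from S1 to S2 was called for Glyma.20G029100 in 3 lines. The log2 fold change of S2 against S1 was -2.26 ± 0.58 in 3mlpa (SE, edgeR adjusted p = 0.00469), -5.92 ± 0.69 in 3MWT (adjusted p = 3.19e-08) and -3.75 ± 0.61 in 1mlpa (adjusted p = 7.61e-06), and it was -1.77 ± 0.56 in 1MWT (adjusted p = 0.0377), where it was not called. In 1MWT replicate 1 at S1 was nearest to S2 over all genes, and replicates 1 and 3 at S2 were nearest to S1 and S3. Over the whole series, S5 against S1, the 4 lines 3mlpa, 3MWT, 1mlpa and 1MWT had values of -4.14 ± 0.76, -7.10 ± 0.83, -5.71 ± 0.80 and -5.42 ± 0.85 in that order (largest adjusted p = 7.18e-06). Genes called lower at S2 against S1 made up 1.28%, 4.56% and 3.79% of the tested genes in 3mlpa, 3MWT and 1mlpa. The 3mlpa step was lost when any of 4 libraries was left out, with log2 fold changes of -2.50 to -1.86 over the 6 omissions and adjusted p up to 0.0469. The 3MWT step was lost with the libraries of that comparison alone (adjusted p = 0.0116).

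Glyma.15G151000 matches SUS2, an Arabidopsis sucrose synthase known for its expression in maturing seeds. In 3mlpa it had 2.78, 2.4 and 3.16 CPM at S1, 9.75, 8.92 and 8.36 CPM at S2, 13.6, 22.9 and 19.5 CPM at S3, 17.1, 18.9 and 26.4 CPM at S4, and 24.1, 25.8 and 35.2 CPM at S5. In 3MWT it had 1.92, 11.6 and 1.66 CPM at S1, 21.3, 19.4 and 17.6 CPM at S2, 19.9, 23.1 and 20.7 CPM at S3, 23.7, 32.8 and 23.2 CPM at S4, and 20.2, 28.2 and 33.5 CPM at S5. The 11.6 CPM belonged to replicate 2 of 3MWT at S1, the library nearest to the S2 mean, which also had the lowest invertase level of its group. In 1mlpa it had 2.42, 2.68 and 3.96 CPM at S1, 14.2, 16.3 and 17.9 CPM at S2, and 32.5, 24.8 and 29.7 CPM at S5, and in 1MWT 5.66, 5.07 and 5.41 CPM at S1, 6.93, 11.3 and 14.8 CPM at S2, and 23.3, 29.7 and 34.6 CPM at S5. The lowest S2 library lay above the highest S1 library in each line.

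The log2 fold change of S2 against S1 for Glyma.15G151000 was 1.69 ± 0.36 in 3mlpa (edgeR adjusted p = 0.000626), 1.95 ± 0.35 in 3MWT (adjusted p = 2.53e-05) and 2.41 ± 0.36 in 1mlpa (adjusted p = 1.56e-06). It was 1.03 ± 0.35 in 1MWT (adjusted p = 0.0492), which was not called. In that line replicate 1 at S1 and replicates 1 and 3 at S2 were nearest to other stages over all genes. Genes called higher at this step made up 3.3%, 4.67% and 4.77% of the tested genes in 3mlpa, 3MWT and 1mlpa. Without replicate 2 of 3MWT at S1 the value in that line was 3.45 (adjusted p = 4.01e-12), and in a fit of the libraries of that comparison alone the call was lost (adjusted p = 0.0921). In 1mlpa and 3mlpa each fit without 1 library kept the call. For S5 against S1 the values in 3mlpa, 3MWT, 1mlpa and 1MWT were 3.35 ± 0.37, 2.44 ± 0.35, 3.26 ± 0.36 and 2.44 ± 0.35 (largest adjusted p = 8.30e-08), and under total count scaling the same 4 values were 1.47 to 2.44, all called. Without replicate 2 of 3MWT at S1 the 3MWT value was 3.91, and with the libraries of that comparison alone it was not called (adjusted p = 0.0164).

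Within a library the ratio of the SUS2 match to the invertase, each in RPKM (reads divided by gene length and library size), does not depend on how libraries are scaled to each other. The ratio was above 1 in 2 of 12 libraries at S1, where it ran from 0.0313 to 2.37 (median 0.335). It was above 1 in all 12 libraries at S2 and in all 12 at S3, with medians of 10.7 and 34.3. At S4 and S5 it had medians of 98.8 and 91.8 over the 11 libraries at each stage in which the invertase had a count. The median ratio of 3 libraries was below 1 at S1 and above 1 at S2 in each of the 4 lines. The 2 libraries above 1 at S1, replicate 2 of 3MWT and replicate 1 of 1MWT, were both nearest to S2 over all genes. The crossing of 1 holds for this pair of genes and not for sucrose synthases and invertases in general. At S1 the sucrose synthase Glyma.09G073600 averaged 36.8 RPKM over 12 libraries, and another, Glyma.17G045800, 60.8. Glyma.20G029100 averaged 6.02 RPKM there, and a vacuolar invertase match, Glyma.05G056300, 40.8.

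**Figure D2:**
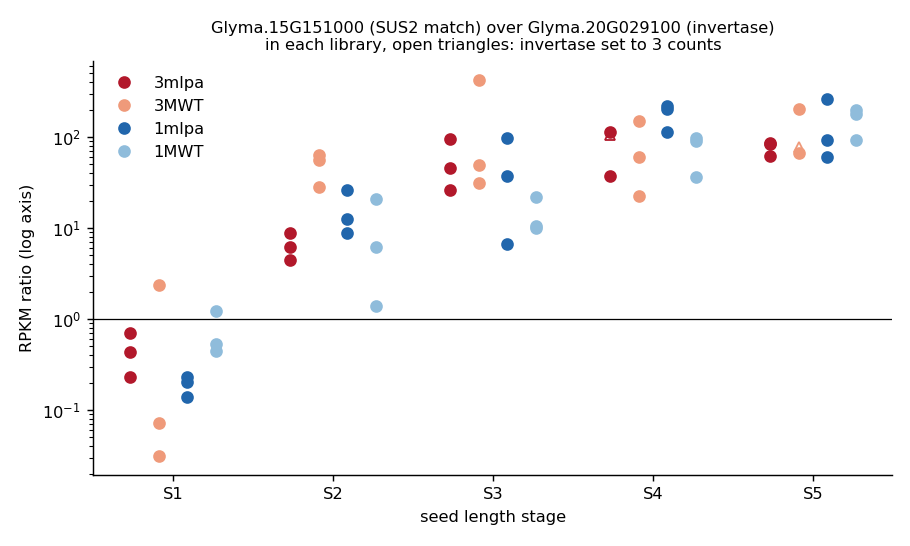
Ratio of RPKM of Glyma.15G151000 to Glyma.20G029100 (log axis) in each library by stage, with open triangles where the invertase count of 0 was set to 3 counts. Of 12 libraries at S1, 2 lie above a ratio of 1, and from S2 on the lowest ratio is 1.39.

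Glyma.09G073600 was the most abundant of the 5 genes at each stage per length, with mean RPKM of 36.8, 26.9, 22.3, 17.6 and 14.7 from S1 to S5 (12 libraries each). SUS4, its match, is an Arabidopsis sucrose synthase known to respond to low oxygen. Its level lay between 35.7 and 209 CPM over the 60 libraries, with stage medians of 128, 91.1, 94.4, 86.2 and 94.2 CPM from S1 to S5. The size of the change over stages depended on the scaling, while its sign was negative under both: S5 against S1 gave log2 fold changes of -0.71, -0.27, -0.41 and -0.53 in 3mlpa, 3MWT, 1mlpa and 1MWT, none called, and under total count scaling they were -1.61 to -1.13 and called in 4 of 4 lines.

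In 1mlpa, Glyma.09G073600 dipped at S4. The 3 libraries had 44.5, 56.5 and 131 CPM at S3, 36.3, 35.7 and 46.9 CPM at S4, and 92.1, 104 and 96.4 CPM at S5, and no S5 library overlapped the S4 libraries. The step from S4 to S5 had a log2 fold change of 1.30 ± 0.26 (edgeR adjusted p = 0.000411), where 0.864% of the tested genes were called higher, and it was called in each fit that left out 1 library and under total count scaling (1.14, adjusted p = 0.00203). The step from S3 to S4 was -0.96 ± 0.26 (adjusted p = 0.00543), short of the fold change threshold, and replicate 3 of 1mlpa at S3 was the library with 131 CPM and was nearest to S2 over all genes. Of the 80 tests of the 5 genes at adjacent stages 7 were called, 3 for Glyma.15G151000, 3 for Glyma.20G029100 and this one, and 14 under total count scaling. The shares of all tested genes that follow are under TMM, and those under total count scaling are not given here. Over the 4 steps from S1 to S5 3mlpa had 4.58%, 3.93%, 1.4% and 2.34% of all tested genes called and 3MWT had 9.23%, 3.06%, 1.19% and 0.343%. For 1mlpa these shares were 8.56%, 0.131%, 4.69% and 3.57%, and for 1MWT they were 1.74%, 0.00987%, 3.12% and 7.17%.

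The 2 SUS6 matches were low throughout. In Arabidopsis SUS6 is known from the phloem, where it takes part in callose deposition at sieve plates. Glyma.09G167000 had 0.338 to 3.16 CPM over the 60 libraries, from 6 to 96 counts, and its stage medians were 2.23, 1.98, 1.60, 1.47 and 0.869 CPM from S1 to S5. S5 against S1 gave -1.39 ± 0.32 in 3mlpa (edgeR adjusted p = 0.000247), -1.32 ± 0.32 in 1mlpa (adjusted p = 0.00039) and -1.74 ± 0.33 in 1MWT (adjusted p = 1.17e-05), and -0.41 ± 0.29 in 3MWT (adjusted p = 0.23). Under total count scaling 3MWT was called too (-1.26, adjusted p = 0.000459). Glyma.14G209900 had 0.336 to 2.18 CPM, from 6 to 76 counts, and no line was called between S5 and S1, although under total count scaling 3 of 4 lines were called lower, with values of -1.44 to -0.92 over the 4 lines.

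Stage-wise comparisons of each mutant line with its non-mutant sister asked which genes differed at a given seed length. Over 5 genes and 5 stages, 5 of 25 tests were called for 3mlpa against 3MWT, all 5 lower in 3mlpa. For 1mlpa against 1MWT edgeR called 0 of 25, DESeq2 called 1, and 3 of 25 had an unadjusted edgeR p under 0.05, against 14 of 25 for 3mlpa against 3MWT. Shares of all tested genes by DESeq2 or at an unadjusted p under 0.05 are not given here. Such counts, here and below, therefore have no background. Of all tested genes, 6.21%, 4.71%, 4.52%, 2.36% and 4.27% were called in 3mlpa against 3MWT from S1 to S5, and 0.289%, 0%, 0.00247%, 0.074% and 0% in 1mlpa against 1MWT. The calls fell at the ends of the series, 2 at S1, where 1.62% of genes were called lower, and 3 at S5, where 2.58% were. The median log2 fold change of all tested genes was within 0.03 of 0 in each of these comparisons.

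**Figure D3:**
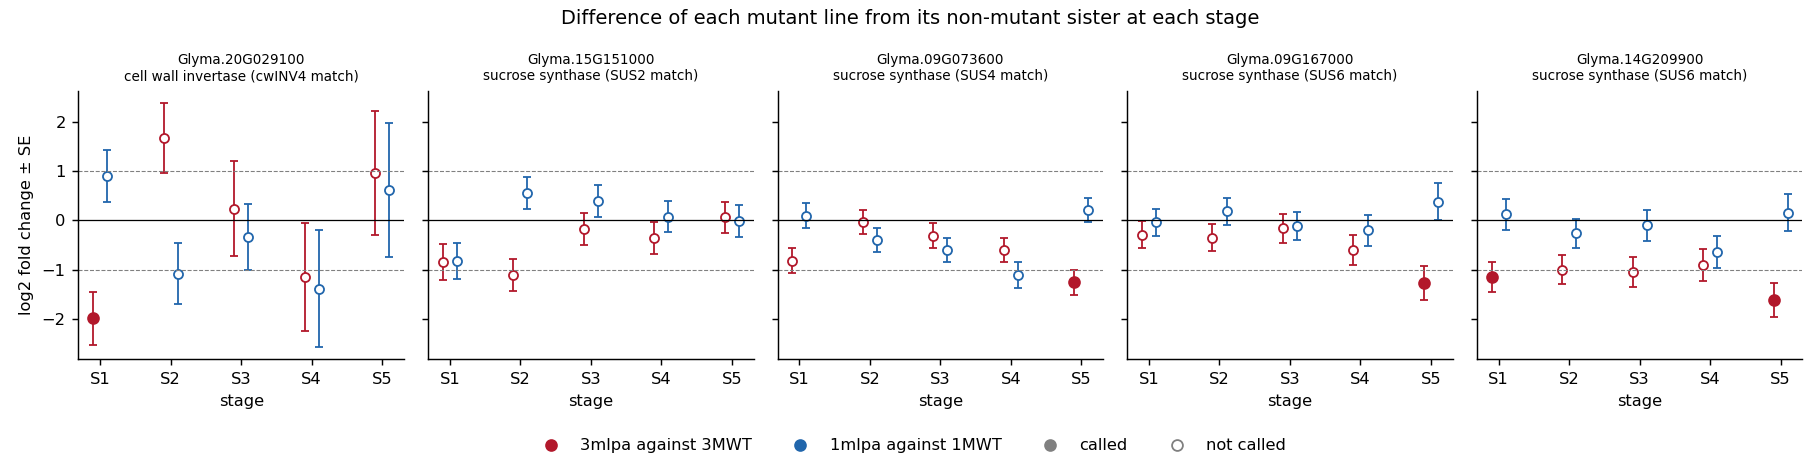
Log2 fold change with its SE of 3mlpa against 3MWT and of 1mlpa against 1MWT at each stage, with filled points for called differences and dashed lines at 1 and -1. The 5 filled points are Glyma.20G029100 and Glyma.14G209900 at S1 and Glyma.09G073600, Glyma.09G167000 and Glyma.14G209900 at S5, all for 3mlpa against 3MWT and all below 0.

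The SUS6 match Glyma.14G209900 was the gene of the 5 with a called mean difference over the stages. The 3mlpa libraries had 0.694, 1.04 and 0.749 CPM at S1, 1.11, 0.713 and 0.978 CPM at S2, 1.18, 0.587 and 0.664 CPM at S3, 1.18, 0.823 and 0.336 CPM at S4, and 0.522, 0.411 and 0.763 CPM at S5. The 3MWT libraries had 2.18, 1.4 and 1.94 CPM at S1, 1.95, 2.10 and 1.61 CPM at S2, 1.69, 1.91 and 1.45 CPM at S3, 1.11, 1.75 and 1.72 CPM at S4, and 1.66, 1.89 and 1.74 CPM at S5. At S4 a 3MWT library lay below the highest 3mlpa library, and at the other stages the groups did not overlap.

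For Glyma.14G209900 the log2 fold change of 3mlpa against 3MWT was -1.15 ± 0.30 at S1 (edgeR adjusted p = 0.00384) and -1.62 ± 0.35 at S5 (adjusted p = 0.000676). At S2, S3 and S4 it was -1.0, -1.05 and -0.91, with adjusted p of 0.0116, 0.0112 and 0.0551. The mean over the 5 stages was -1.15 ± 0.14 (edgeR adjusted p = 5.80e-09), a difference called in 6.75% of the tested genes (2.03% lower). It was called in all 30 fits that left out a library of the pair, with values of -1.24 to -1.08, and in 8 of 8 other settings. Of these 8, the adjusted p alone could not lose a call. Over all stages the 15 libraries of 3mlpa had 0.336 to 1.18 CPM (median 0.749), against 1.11 to 2.18 CPM (median 1.74) in 3MWT. The libraries of 1mlpa had 0.551 to 1.5 CPM (median 0.841), against 0.526 to 1.83 CPM (median 0.988) in 1MWT. These ranges overlap both that of 3mlpa and that of 3MWT, and the median was highest in 3MWT. The S1 call was lost in 4 of 6 fits without a library of the comparison (adjusted p up to 0.0264), under total count scaling (-1.05, adjusted p = 0.0115) and with the libraries of the comparison alone (adjusted p = 0.0376). The S5 call was lost in 0 of 6 such fits, and with the libraries of the comparison alone (adjusted p = 0.0184).

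At S5 the sucrose synthases Glyma.09G073600 and Glyma.09G167000 were lower in 3mlpa as well. Glyma.09G073600 had 54.8, 60.5 and 69.3 CPM in 3mlpa at S5, against 148, 163 and 132 CPM in 3MWT, with no overlap. Its log2 fold change was -1.26 ± 0.26 (edgeR adjusted p = 0.000357), and it was -1.36 to -1.18 in the 6 fits without a library, each of them called. At S5 this gene had 92.1 to 104 CPM in 1mlpa and 76.0 to 96.5 CPM in 1MWT, both between 3mlpa and 3MWT. Glyma.09G167000 had 0.718, 0.821 and 0.620 CPM in 3mlpa, against 1.48, 1.84 and 1.91 CPM in 3MWT. The log2 fold change was -1.28 ± 0.34 (edgeR adjusted p = 0.00541), and this call was lost in each of the 6 fits without a library (adjusted p of 0.0108 to 0.0299). At S5 Glyma.09G167000 had 0.658 to 1.17 CPM in 1mlpa and 0.338 to 1.30 CPM in 1MWT. Both ranges overlapped that of 3mlpa and lay below that of 3MWT. The SUS2 match did not follow these sucrose synthases: Glyma.15G151000 had 24.1, 25.8 and 35.2 CPM in 3mlpa at S5, against 20.2, 28.2 and 33.5 CPM in 3MWT, and a log2 fold change of 0.06 ± 0.32.

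At S5 the 3 storage markers summed to 124741 to 144528 CPM in 3mlpa, against 130528 to 137247 CPM in 3MWT, and the 2 seed coat markers to 104 to 188 CPM in 3mlpa, against 182 to 222 CPM in 3MWT, both with overlap. Their part in these differences was not tested. The mean over the 5 stages was -0.61 ± 0.11 for Glyma.09G073600 (edgeR adjusted p = 1.49e-05), -0.54 ± 0.13 for Glyma.09G167000 (adjusted p = 0.000719) and -0.49 ± 0.15 for Glyma.15G151000 (adjusted p = 0.00512), all under the fold change threshold. For Glyma.15G151000 it was -0.19 without replicate 2 of 3MWT at S1 (adjusted p = 0.132). In 1mlpa against 1MWT 0.079% of the tested genes and none of the 5 had a called mean (edgeR and DESeq2), with 1 of 5 at an unadjusted p under 0.05, against 4 of 5 in the 3mlpa pair. The change of the line difference between S1 and S5 was called in 0 of 10 tests by edgeR and by DESeq2, and 2 of the 10 had an unadjusted p under 0.05, Glyma.09G167000 and Glyma.20G029100 in the 3mlpa pair. It was called in 1.93% of the tested genes for that pair and 0% for the other.

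At S1 the invertase was lower in 3mlpa. Glyma.20G029100 had 4.28, 7.07 and 3.05 CPM in 3mlpa, against 18.1, 3.32 and 35.8 CPM in 3MWT, where replicate 2 fell within the range of 3mlpa. The log2 fold change was -1.99 ± 0.53 (edgeR adjusted p = 0.00472). It was -2.50 (adjusted p = 0.000268) without that library and -1.17 (adjusted p = 0.127) without replicate 3 of 3MWT, and the call was lost in 4 of 6 such fits, with a replicate block (-1.82, adjusted p = 0.0103), with DESeq2 (adjusted p = 0.0138) and with the libraries of the comparison alone (adjusted p = 0.109). At S1 the invertase had 3.09 to 8.22 CPM in 1MWT, which overlapped 3mlpa, and 7.92 to 13.2 CPM in 1mlpa.

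At S1 the 3 storage markers summed to 1.94 to 29.6 CPM in 3mlpa, against 51.8 to 145 CPM in 3MWT, with no overlap. Of the 3, only glycinin G1 was without overlap, at 0.377 to 2.55 CPM in 3mlpa, against 45.5 to 87.5 CPM in 3MWT. The beta-conglycinin and the oleosin overlapped. The 2 seed coat markers summed to 398 to 471 CPM in 3mlpa, against 287 to 521 CPM in 3MWT, with overlap. Their part in the invertase difference was not tested. At S2 the invertase had 0.750 to 1.27 CPM in 3mlpa, against 0.225 to 0.423 CPM in 3MWT, with no overlap, and a log2 fold change of 1.67 ± 0.71 that was not called (adjusted p = 0.0814).

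The SUS2 match at S2 came close to a call. Glyma.15G151000 had 9.75, 8.92 and 8.36 CPM in 3mlpa at S2, against 21.3, 19.4 and 17.6 CPM in 3MWT, with no overlap and a log2 fold change of -1.11 ± 0.33 (edgeR adjusted p = 0.0123). DESeq2 called it (adjusted p = 0.00904), as did a fit of these 6 libraries alone (adjusted p = 0.000412). At S2 the storage markers summed to 394 to 954 CPM in 3mlpa, against 799 to 6269 CPM in 3MWT, with overlap, and the seed coat markers to 441 to 526 CPM in 3mlpa, against 270.1 to 356 CPM in 3MWT, without overlap. Their part in the SUS2 difference was not tested.

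In the pair with mips1 alone, the nearest to a call was Glyma.09G073600 at S4. It had 36.3, 35.7 and 46.9 CPM in 1mlpa, against 85.0, 84.3 and 87.3 CPM in 1MWT, with no overlap and a log2 fold change of -1.11 ± 0.26 (edgeR adjusted p = 0.0225). DESeq2 called it (adjusted p = 0.00381), as did total count scaling (-1.36, adjusted p = 0.00304) and a fit of these 6 libraries alone (adjusted p = 7.6e-06). At that stage the storage markers summed to 90596 to 102297 CPM in 1mlpa, against 40327 to 56253 CPM in 1MWT, and the seed coat markers to 84.6 to 156 CPM in 1mlpa, against 276 to 506 CPM in 1MWT, both without overlap. Their part in this difference was not tested. The mean over stages was -0.36 ± 0.11 (adjusted p = 0.0503), and the means of the other 4 genes in this pair were -0.26 to 0.04, none of them called.

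Whether the line difference was unequal in the 2 pairs was tested as the difference of 3mlpa from 3MWT minus that of 1mlpa from 1MWT. It was called in 3 of 25 tests: Glyma.20G029100 at S1 (-2.89 ± 0.75, edgeR adjusted p = 0.00472), Glyma.15G151000 at S2 (-1.66 ± 0.46, adjusted p = 0.00872) and Glyma.09G073600 at S5 (-1.47 ± 0.36, adjusted p = 0.00903). Of all tested genes 6.48%, 5.46%, 3.84%, 2.27% and 1.32% were called from S1 to S5. At S1 the invertase was lower in 3mlpa and stood at 11.8, 7.92 and 13.2 CPM in 1mlpa, against 3.09, 6.43 and 8.22 CPM in 1MWT, with a log2 fold change of 0.90 ± 0.52 that was not called. At that stage the storage markers summed to 2.76 to 7.68 CPM in 1mlpa, against 66.3 to 90.6 CPM in 1MWT, with no overlap, and the seed coat markers to 555 to 671 CPM in 1mlpa, against 484 to 604 CPM in 1MWT, with overlap, and their part in the difference between the pairs was not tested. The calls of Glyma.15G151000 and Glyma.09G073600 were each lost in 10 of 12 fits without a library, and that of the invertase in 6 of 12.

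The deposited annotation names 1 more sucrose synthase, Glyma.17G045800, which like Glyma.09G073600 matches SUS4. That annotation covers 13166 of the 56044 genes, and sucrose synthase genes outside it were not looked for. Per length Glyma.17G045800 was the most abundant of the 5 annotated sucrose synthase genes. Its share of their summed RPKM had a median of 60.3% at S1 and of 83.4%, 88.2%, 87.8% and 84.5% from S2 to S5. Glyma.09G073600 had a median share of 36.8% at S1 and of 13.5%, 9.44%, 9.36% and 10.5% from S2 to S5. The share of Glyma.15G151000 had medians of 1.53% at S1 and 4.28% at S5, and those of Glyma.09G167000 and Glyma.14G209900 were under 1% at each stage. Shares within a library do not depend on the scaling between libraries.

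The mean share of Glyma.09G073600 dropped from S1 to S2 in each line, and the mean share at S2 was highest in 1MWT. In 3mlpa its mean share was 36.0% ± 1.64 at S1 and 15.9% ± 1.64 at S2, and in 3MWT 38.6% ± 13.8 and 9.29% ± 0.559 (SD, n = 3). In 1mlpa it was 39.8% ± 3.48 and 11.6% ± 1.31, and in 1MWT 34.2% ± 4.52 and 23.6% ± 10.5. The 1MWT libraries ran from 31.2% to 39.4% at S1 and from 14.3% to 34.9% at S2, with overlap. Over all genes, replicate 1 of 1MWT at S2 was nearest to S1 and replicate 3 was nearest to S3. At S5 the mean share of Glyma.09G073600 was 6.59% ± 1.22 in 3mlpa, against 12.4% ± 1.78 in 3MWT. Glyma.17G045800 was called higher at S5 against S1 in all 4 lines, with log2 fold changes of 2.29, 1.81, 2.05 and 1.59 in 3mlpa, 3MWT, 1mlpa and 1MWT (largest edgeR adjusted p = 5.63e-08). Reads shared between these similar genes could be split by the counting, and how reads with several matches were treated is not given in the sources used here.

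**Figure D4:**
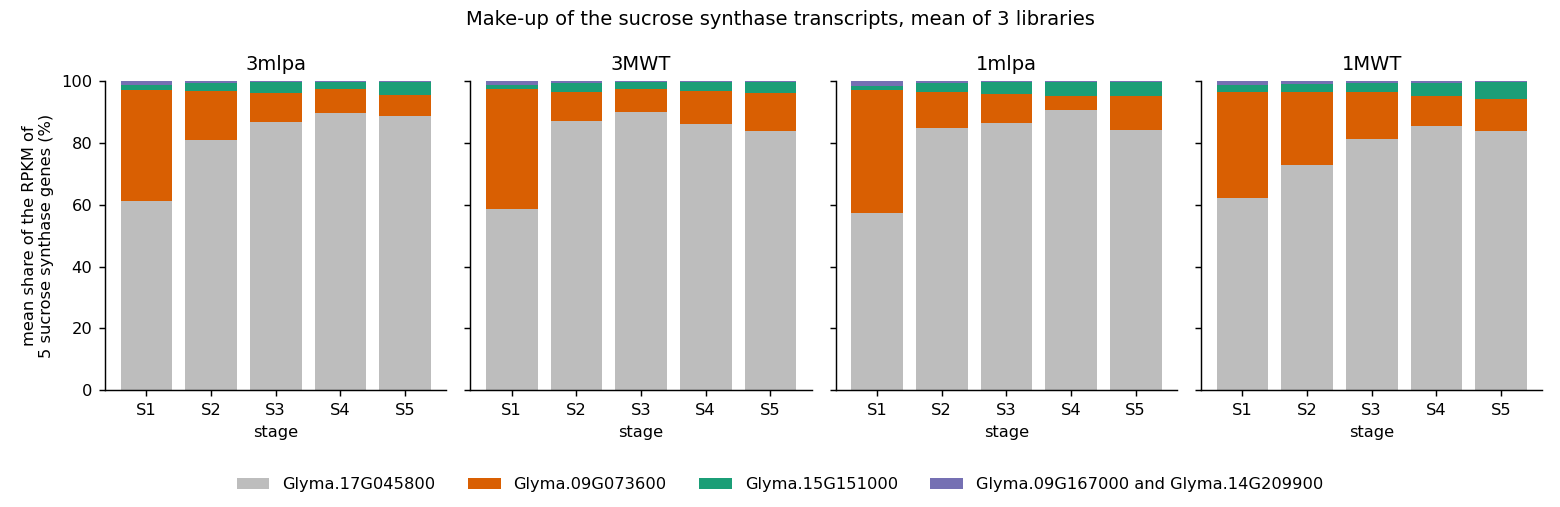
Mean share of each gene in the summed RPKM of the 5 annotated sucrose synthase genes (percent, stacked) by stage in each line, as the mean of 3 libraries. Glyma.09G073600 takes 34.2% to 39.8% at S1 and 6.59% to 12.4% at S5, and Glyma.17G045800 takes most of the rest.

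Over the 20 group means, the level of Glyma.15G151000 had a correlation of 0.93 with that of Glyma.17G045800 and of -0.91 with that of the invertase, on the log2 scale. These values describe 20 groups that share stages and libraries. Among 29479 compared genes, those with the profile most like that of Glyma.15G151000 were Glyma.02G030200, a match of the cell cycle gene CYCD1;1 (r = 0.992), Glyma.04G208700, of unknown function (0.990), and Glyma.12G103100, a match of the transcription factor DREB2C (0.990). Those most like the invertase were Glyma.09G202000, a match of the serine hydroxymethyltransferase SHM1 (0.986), Glyma.14G217000, a glyoxal oxidase-related gene (0.985), and Glyma.01G066500, of the O-fucosyltransferase family (0.984).

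The other sucrose synthases had no match as close. For Glyma.09G073600 the nearest were Glyma.11G125300 (0.919), Glyma.12G043700 (0.891) and Glyma.20G036100 (0.855). For Glyma.09G167000 they were Glyma.13G157300 (0.947), Glyma.05G046100 (0.946) and Glyma.07G261200 (0.945). For Glyma.14G209900 they were Glyma.15G243000, with a carbohydrate-binding X8 domain (0.919), Glyma.02G297900 (0.909) and Glyma.14G201900 (0.908).

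Around these genes, a list of sucrose genes was drawn from the annotation words in the deposited tables: 37 genes, all tested, with 5 sucrose synthases, 12 of the invertase class, 8 inhibitors of invertase (fructosidase inhibitors), 3 sucrose-phosphate synthases, 1 sucrose-phosphate phosphatase, 2 fructokinases, 1 hexokinase, 2 UDP-glucose pyrophosphorylases and 3 sucrose transporters. These tables list genes that the study called on these samples. The list is therefore not independent evidence of its direction or of how many of its genes were called. Of the 32 that are not among the 5 genes, 2, 3, 1, 0 and 0 were called higher and 1, 0, 1, 0 and 1 lower in 3mlpa against 3MWT from S1 to S5. In 1mlpa against 1MWT edgeR called 0 of the 160 tests of these genes, with 24 at an unadjusted p under 0.05, against 50 of 160 in the 3mlpa pair. The median log2 fold change of the 32 in the 3mlpa pair was -0.03, 0.24, 0.18, 0.09 and 0 from S1 to S5, beside medians of all tested genes within 0.03 of 0.

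Among the invertases, the second match of cwINV4, Glyma.10G074800, was lower in 3mlpa at S1 as well. It had 1.49 ± 0.668 CPM in 3mlpa, against 12.4 ± 7.94 CPM in 3MWT (SD, n = 3 each), with a log2 fold change of -3.05 ± 0.56 (edgeR adjusted p = 0.000182), and its line difference was unequal in the 2 pairs as well (-3.99 ± 0.77, adjusted p = 0.000371). The vacuolar invertase match Glyma.17G138500 was higher in 3mlpa, with 25.2 ± 4.63 CPM in 3mlpa, against 9.34 ± 2.32 CPM in 3MWT at S1 (log2 fold change 1.43 ± 0.30, adjusted p = 0.00039), and again at S2 (1.36 ± 0.29, adjusted p = 0.000793). Glyma.17G227900, a match of the fructan exohydrolase cwINV6, was higher at S1 (3.19 ± 0.76, adjusted p = 0.00179), Glyma.01G052300, which matches by the words arabinanase, levansucrase and invertase, at S2 (1.05 ± 0.28, adjusted p = 0.00671), and the neutral invertase Glyma.07G236000 at S3 (1.04 ± 0.29, adjusted p = 0.00757). Levels of the first 2 were low: over 12 libraries Glyma.17G227900 averaged 0.145 RPKM at S1 and Glyma.01G052300 0.353 RPKM at S2. At S5 the other vacuolar match, Glyma.05G056300, was lower, with 29.2 ± 6.84 CPM in 3mlpa, against 63.2 ± 9.38 CPM in 3MWT (-1.11 ± 0.30, adjusted p = 0.0061). The inhibitors gave a call at S2, Glyma.07G237300 (1.45 ± 0.39, adjusted p = 0.00592), and at S3, Glyma.20G029200 (-2.10 ± 0.57, adjusted p = 0.00654).

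Between S5 and S1, 13 of the 37 genes were called lower and 7 higher in all 4 lines, where 10.8% of all tested genes were called lower and 8.31% higher in all 4. Because the 37 were drawn from genes already called on these samples, shares and medians of all tested genes are not a like background. The shares among the annotated genes are not given here. The 13 were 6 of 12 invertases, 5 of 8 inhibitors, a UDP-glucose pyrophosphorylase (Glyma.11G231700) and a sucrose transporter (Glyma.02G075000). The 7 were the sucrose synthases Glyma.15G151000 and Glyma.17G045800, the sucrose-phosphate synthase Glyma.18G108100, the hexokinase Glyma.07G015100, the UDP-glucose pyrophosphorylase Glyma.14G210700 and the sucrose transporters Glyma.02G075100 and Glyma.10G217900. The median log2 fold change of the 37 was -1.36, -0.71, -0.48 and -0.90 in 3mlpa, 3MWT, 1mlpa and 1MWT, and that of all tested genes -0.05, -0.05, -0.04 and -0.04.

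The invertase Glyma.20G029100 has neighbours by gene number on chromosome 20 that were lower at S5 too: the invertase Glyma.20G029300, a match of cwINV2, and the inhibitors Glyma.20G028700, Glyma.20G028900, Glyma.20G029200, Glyma.20G029500 and Glyma.20G029700. All 7 genes were called lower at S5 against S1 in all 4 lines. In RPKM, Glyma.20G029100 averaged 6.02, 0.566, 0.272, 0.0937 and 0.0591 from S1 to S5 over 12 libraries each, while the inhibitor Glyma.20G029500 averaged 43.6, 24.6, 5.34, 1.04 and 0.335. The group was picked after its values were seen, and genes of similar sequence side by side could share reads.

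**Figure D5:**
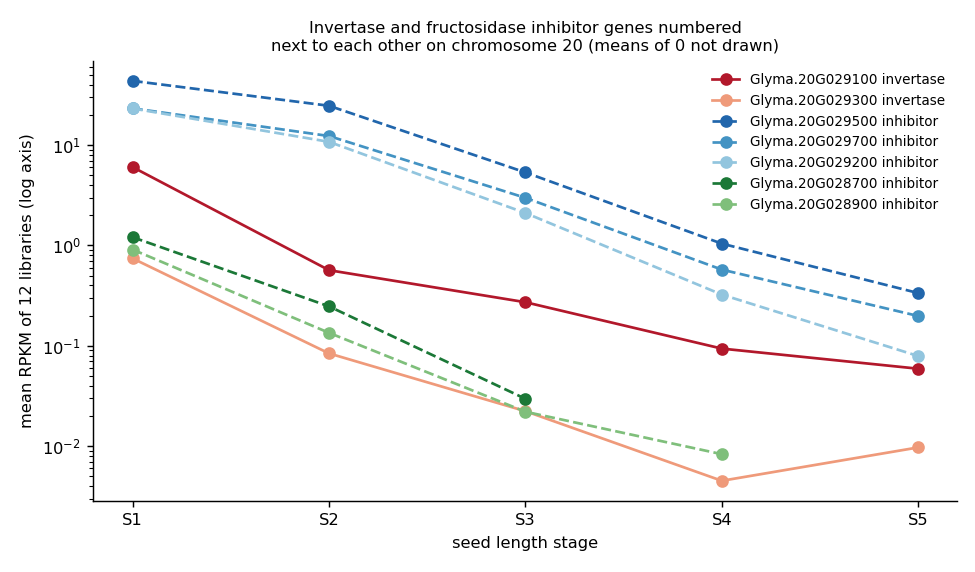
Mean RPKM of 12 libraries (log axis) by stage for the 2 invertase and 5 inhibitor genes with adjoining identifiers on chromosome 20. Each gene was highest at S1, with 6.02 RPKM for Glyma.20G029100 and 43.6 RPKM for Glyma.20G029500, and means of 0 are not drawn.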

How the data were processed

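Single-end reads of mRNA libraries were aligned by the authors to the Williams 82 soybean genome with STAR 2.4.2 and counted per gene with featureCounts 1.4.6. Deposited count tables give unnormalized whole reads for each gene. The authors' RPKM table holds those counts over gene length and total count (checked on 16788 genes, largest deviation 0.00773%), so they carry no correction for storage protein RNA. The deposited annotation pairs gene identifiers with Arabidopsis matches. The authors' fold changes (DESeq2 1.8.2 in R 3.2.4), enrichment and network tables were not used. Strand and reads with several matches are not given in the sources used here, and no sequence was printed.

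Groups came from the labels. The count analysis used R 4.3.3 with edgeR 4.0.16 (and limma 3.58.1), with TMM, filterByExpr (40517 of 56044 genes), and a quasi-likelihood fit of 20 group means over 60 libraries, with Benjamini-Hochberg adjustment over all tested genes of each comparison and 3 libraries per group. Stages, lines, pairs of lines, the mean over stages and its change were contrasts of that fit, with calls as defined in the report. Alternatives were RLE size factors, DESeq2 1.42.0, no filter on low counts, the libraries of the comparison alone, a replicate block, the adjusted p alone, and omission of libraries. Total count scaling, and leaving out the 3 libraries whose column name carries a suffix, were chosen after seeing the data. The fit was tested on simulated data. The text names the 5 genes, the sucrose genes of the invertase and sucrose synthase classes called in a line comparison, those of the other classes with the smallest adjusted p (at most 4 each, named where called), and for each of the 5 genes the 3 genes nearest by Pearson r of log2 mean CPM (1 CPM added) over 20 groups (average log2 CPM above 1). Genes named for the change between S5 and S1 were chosen after their values were seen. The 5 genes and the lists were chosen with earlier results of these data known. Figures were drawn with matplotlib.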

Additional observations from a re-analysis of the deposited data

Results flagged for a closer look

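The difference between a mutant line and its sister was unequal in the 2 pairs of lines for 3 of the 5 genes, each at a different stage, by the test of the difference itself in the edgeR quasi-likelihood fit. The invertase Glyma.20G029100 at S1 had a difference of -2.89 on the log2 scale (SE 0.75, adjusted p = 0.00472), with a log2 fold change of -1.99 for 3mlpa against 3MWT and of 0.90 for 1mlpa against 1MWT. The storage markers at S1 summed to 1.94 to 29.6 CPM in 3mlpa, against 51.8 to 145 CPM in 3MWT, and to 2.76 to 7.68 CPM in 1mlpa, against 66.3 to 90.6 CPM in 1MWT, and their part in this was not tested. Between 3mlpa and 3MWT only glycinin G1 of these markers was without overlap. The SUS2 match Glyma.15G151000 at S2 had a difference of -1.66 (SE 0.46, adjusted p = 0.00872), with -1.11 for 3mlpa against 3MWT and 0.56 for 1mlpa against 1MWT. At S2 the storage markers summed to 394 to 954 CPM in 3mlpa, against 799 to 6269 CPM in 3MWT. They summed to 592 to 2381 CPM in 1mlpa, against 56.2 to 2535 CPM in 1MWT. The seed coat markers at S2 summed to 441 to 526 CPM in 3mlpa, against 270 to 356 CPM in 3MWT, without overlap. For 1mlpa the seed coat sums were 485 to 542 CPM, against 538 to 745 CPM in 1MWT, with overlap. At S1 and S5 the seed coat sums overlapped in both pairs. The part of both marker sets was not tested. Over all genes, replicate 1 of 1MWT at S2 was nearest to S1 and replicate 3 was nearest to S3. The SUS4 match Glyma.09G073600 at S5 had a difference of -1.47 (SE 0.36, adjusted p = 0.00903), with -1.26 for 3mlpa against 3MWT and 0.21 for 1mlpa against 1MWT. The storage markers at S5 summed to 124741 to 144528 CPM in 3mlpa, against 130528 to 137247 CPM in 3MWT. In 1mlpa they summed to 105318 to 139666 CPM, against 113038 to 201928 CPM in 1MWT, and their part was not tested. Of 12 fits that left out a library of the comparison, 6, 2 and 2 kept the call in that order, and of 8 other settings 6, 7 and 7 did. Of these 8, the adjusted p alone could not lose a call. The mutations, the rest of each line's genome and the sequencing effort of each pair cannot be told apart here.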

How the results depend on the processing

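Of 195 values tested for the 5 genes 27 were called, and none of the 27 turned its direction under any alternative. Of these, 20 kept their call in every fit without 1 library of the comparison, and 16 of those kept it under all 8 other settings too. Of these 8, the adjusted p alone could not lose a call, because it drops the fold change threshold from the same fit. Fits without a replicate number in all groups are not among the 8. A further 136 had an adjusted p of 0.05 or more and were not called under any setting, and 78 of those changed sign under at least 1 setting.

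Counts of called line differences were 5, and 3 to 6 with single libraries left out. The count was 3 without replicate 1 or 3 of 3mlpa at S1 or replicate 1 or 3 of 3MWT at S1, and 0, 2 and 2 with replicate 1, 2 or 3 of all groups left out at once, where 2 libraries per group remained. Calls at adjacent stages numbered 7 (3 to 8 over these omissions, 14 under total count scaling), calls between S5 and S1 numbered 11 (10 to 11, and 19 under total count scaling), and differences between the pairs numbered 3 (0 to 4). Shares of all tested genes called under total count scaling are not given here, so its counts have no background. The mean line difference was called for 1 gene, and for 4 genes by the adjusted p alone.

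Pairing of samples by replicate number was not seen, and with 3 libraries per group this check cannot exclude it. All 3 correlations of same-numbered deviations were over 0.1 in 2 of 26 comparisons, and they ran from -0.644 to 0.605. The replicate block gave 4 line calls, 7 stage calls, 11 calls between S5 and S1 and 3 between the pairs. It lost 1 call, Glyma.20G029100 at S1 (-1.82, adjusted p = 0.0103). Leaving out 1 library keeps the dispersion of the full fit. Depth limits the invertase from S3 on and both SUS6 matches.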
